A study of Gallus gallus with 14 samples.

Results

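Retinal RNA of female chicks that wore a strong negative lens is compared here with that of female chicks from the control group. The libraries were chosen from their own reads: a library was taken when its CPM (read counts scaled to library size) summed over the genes of chromosome W, which in birds is carried by females alone, passed 600. Of the 14 libraries in the series, 7 met this, with sums of 604 to 655 CPM, and they comprised 4 of the 7 lens libraries and 3 of the 7 control libraries. The lowest sum among them was 604 CPM in lens 2, just above the threshold. The highest among the other 7 libraries was 3.11 CPM in lens 4, and no library lay between these values. The labels give no sex; summed chromosome Z reads ran from 13356 to 13709 CPM in the 7 chosen libraries and from 17307 to 17837 CPM in the others. Female birds carry a single Z and males a pair. W and Z sums chose or describe the libraries and are not tested. The fits below include 27 W genes, whose values the choice used; 6 of them were called in lens 1, 2 and 3 against control, and none is described.

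The lens group carried lenses of -10 D, fixed over the eye on Velcro rings, for 1 day, and the control group is labelled as control with no further word on how those eyes were handled. All birds were wild-type White Leghorn chicks at postnatal day 3, and total RNA of the retina was sequenced. The libraries are named here by the number in their titles. Lens 1, lens 2 and lens 3 come from a run of lens titles numbered 1 to 4 and lens 13 comes from another run numbered 12 to 14, so lens 13 is shown separately throughout; the controls were control 19, control 21 and control 23. What the numbers and the letters L and R in the titles stand for is not stated, nor whether each library came from a different bird, so p-values measure the spread between these libraries.

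A negative lens throws the image behind the retina, and a young chick's eye answers this hyperopic defocus by growing longer, which makes it myopic. The signal starts in the retina itself: it persists when the optic nerve is cut, and amacrine and bipolar cells, dopamine, glucagon, retinoic acid and insulin-related signals have been linked to it in the chick. The retina also holds its own circadian clock, in which ARNTL, CLOCK and NPAS2 activate the period and cryptochrome genes that then repress them.

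The 7 libraries held 27.7 to 43.4 M reads, as estimated from the smallest step between low values. By the same estimate 8.63 to 13.4 M of them fell in the genes of the table, whose CPM summed to 306506 to 319250 per library. Of 18631 genes, 11005 averaged at least 1 CPM over the 14 libraries and were tested. Control 23 was the shallowest. Changes are given as differences in log2(CPM + 1), which understates those of genes at low level, each with its standard error, and a gene was called at an adjusted p (limma, Benjamini-Hochberg over all genes) under 0.05. No pair of libraries was identical: the closest, lens 1 and lens 2, correlated at 0.993 over genes. Photoreceptor genes were present, as the tissue label gives: the cone phosphodiesterase subunit PDE6H had 638, 564 and 578 CPM in lens 1, 2 and 3 and 453 CPM in lens 13, against 573, 650.4 and 583 CPM in the controls. The 8 striated muscle genes in the table added up to 1.17 to 1.73 CPM in lens 1, 2 and 3, 1.49 CPM in lens 13 and 1.19 to 2.36 CPM in the controls, and the 15 leukocyte and microglia genes to 8.78 to 11.3 CPM, 7.82 CPM and 8.69 to 9.51 CPM in the same groups. The 4 red blood cell genes summed to 6.85 to 8.29 CPM, 6.14 CPM and 6.56 to 7.65 CPM, nearly all from CA13, with the erythrocyte anion exchanger SLC4A1 listed at 0 in all 7. The 14 lens and cornea genes summed to 17.9 to 22.1 CPM, 19.9 CPM and 21.3 to 23.8 CPM, most of it from CRYBA4, with the lens fibre channel MIP listed at 0 in all 7.

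The lens libraries did not lie together. The first principal component of the 7 libraries held 40% of the variance and placed lens 1, 2 and 3 at 16.1, 12.1 and 13.5, lens 13 at -9.54 and the controls at -12.8, -8.64 and -10.7. Lens 13 therefore lay inside the range of the controls on the main axis. The second component held 17.3% and placed lens 13 at 12.9, with the other 6 libraries between -12 and 5.75. The median absolute difference per gene between lens 13 and a control was 0.129 to 0.153 on the log2 scale, and between lens 13 and lens 1, 2 or 3 it was 0.163 to 0.187. Age, dose and duration carry the same labels in all 4 lens libraries; the title number moves with this split, and its part in it was not tested.

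**Figure D1:**
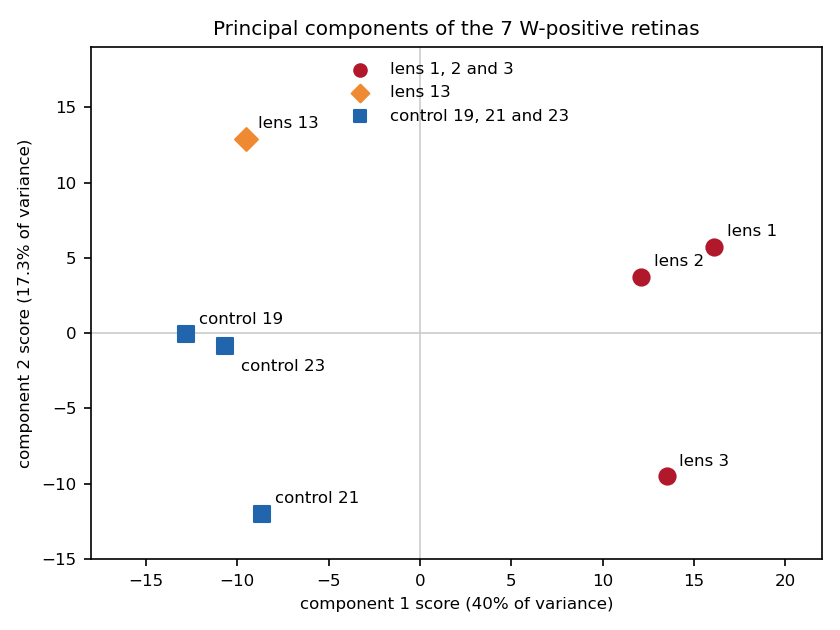
Scores of the 7 libraries on the first 2 principal components of log2(CPM + 1) over 11005 genes, with 40% of the variance on the x axis and 17.3% on the y axis. Lens 1, 2 and 3 (red circles) sit between 12.1 and 16.1 on the first component, and lens 13 (orange diamond) at -9.54 among the controls (blue squares).

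With all 4 lens libraries in 1 group against the 3 controls, 6 genes passed the test, 1 higher (0.00909%) and 5 lower (0.0454%) in lens retinas, together 0.0545% of the genes tested; 1988 genes had an unadjusted p under 0.05. The table marks 4 of the 6 as noncoding. ZNF532, a zinc finger gene on chromosome Z (chrZ:852530-892045, build GRCg6a), had 40.1, 41.7 and 41.5 CPM in lens 1, 2 and 3 and 42.5 CPM in lens 13, against 56.6, 56.6 and 58.3 CPM in the controls. All 4 lens libraries lay below all 3 controls, and the fall was 0.45 ± 0.06 on the log2 scale (SE, adjusted p = 0.0274). FAM179A (chr3:9164052-9213825), whose product belongs to a family of TOG-domain proteins, had 27.7, 27.1 and 31.8 CPM in lens 1, 2 and 3 and 29.3 CPM in lens 13, against 42.1, 43.4 and 39.9 CPM in the controls. Again the groups did not overlap, with a fall of 0.52 ± 0.07 (adjusted p = 0.0356).

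The other 4 called genes are noncoding loci without a name, given here because they complete the count and chosen after their values were seen. LOC112531859 (chr2:113285467-113294825) was the gene that rose, by 1.37 ± 0.13 (adjusted p = 0.00456): it had 8.02, 6.80 and 6.77 CPM in lens 1, 2 and 3 and 9.16 CPM in lens 13, against 2.16, 2.88 and 2.06 CPM in the controls. All 4 lens libraries were above all 3 controls, but outside these 7 libraries control 22 also stood at 7.47 CPM. LOC107053624 (chr6:6520648-6606924) fell by 0.77, LOC101751262 (chr1:191474073-191493831) by 0.66 and LOC107053374 (chr5:8748372-8865520) by 1.41, with adjusted p between 0.0274 and 0.0353. LOC107053374 was the lowest in level, at 0.381, 0.828 and 0.440 CPM in lens 1, 2 and 3 and 0.495 CPM in lens 13, against 1.94, 3.08 and 4.62 CPM in the controls. It met the filter on the mean through libraries with higher values, the controls among them, so its call is no independent support. This set of calls rests on single libraries: the count was 0 without control 23, 1 without lens 1, lens 2 or control 21, 3 without control 19, 5 without lens 3 and 1263 without lens 13. Without any filter on low values it was also 0.

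Counting called genes as well, 633 genes (5.75%) were higher in every one of the 4 lens libraries than in every control and 1030 (9.36%) were lower. Beyond the called genes, those of smallest p among them that a fixed rule named did not pass the test (limma, adjusted p of 0.0615 to 0.0785). They are given by their values. PER2, a clock repressor (chr9:5654602-5695660), had 165, 152 and 151 CPM in lens 1, 2 and 3 and 204 CPM in lens 13, against 228, 247 and 251 CPM in the controls. SORBS2, an adaptor of the actin cytoskeleton, had 106, 109 and 102 CPM in lens 1, 2 and 3 and 124 CPM in lens 13, against 147, 165 and 146 CPM in the controls. In both genes lens 13 stood below the controls yet nearer to them than the other 3 lens libraries did. COL9A3, a chain of the fibril-associated collagen of cartilage and vitreous, had 8.83, 7.91 and 10.7 CPM in lens 1, 2 and 3 and 8.86 CPM in lens 13, against 3.98, 5.20 and 5.88 CPM in the controls. FABP5, a fatty acid carrier, had 48.4, 48.2 and 46.0 CPM in lens 1, 2 and 3 and 42.6 CPM in lens 13, against 34.9, 35.9 and 32.9 CPM in the controls. In these 2 genes all 4 lens libraries lay above every control. GPX4, which reduces lipid peroxides, had 13.02, 13.2 and 16.1 CPM in lens 1, 2 and 3 and 12.2 CPM in lens 13, against 21.7, 21.2 and 19.05 CPM in the controls. For COL9A3 and GPX4 lens 13 lay among or beyond the other lens libraries. The same holds for the metabotropic glutamate receptor GRM5, at 39.1, 49.8 and 46.8 CPM in lens 1, 2 and 3 and 48.6 CPM in lens 13, against 63.7, 66.2 and 62.1 CPM in the controls. Further named genes with all 4 lens libraries on 1 side were PUDP, CLEC3A, DCAF17, MAN1B1, ANXA2, REEP2, F5, SMC4, SLC38A2 and UHRF1, all higher, and DEPDC5, CCDC83, NCOA2, HNRNPH3, RAD54L2, C10H15ORF59 and the histone genes HIST1H111L and HIST1H111R, all lower.

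Lens 1, 2 and 3 against the same controls gave 1254 called genes, 634 higher (5.76%) and 620 lower (5.63%), together 11.4% of the genes tested. No control title in the series is numbered 1 to 4. Lens wear and title run therefore cannot be told apart in this comparison, nor in the rises and falls described below for these libraries. Their median absolute change was 0.403 on the log2 scale, and 251 changed at least 1.5-fold. Groups did not overlap for 1841 higher genes (16.7%) and 1797 lower ones (16.3%). Genes of cytosolic and endoplasmic reticulum chaperones were among those that fell and genes of cholesterol synthesis among those that rose, and both groups are described next. The count fell to 607 without lens 1, 595 without lens 2, 650 without control 19 and 613 without control 23, and to 404 without a filter on low values. The gene lists behind the counts below were put together with earlier results of these data known, so a list's count is a description and is to be read against the 11.4% of all genes.

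Cytosolic chaperones fold new proteins and refold damaged ones. Of the 31 tested, 13 fell and 2 rose (48.4%, against 11.4% of all genes). The median change was -0.176, against 0.00225 over all genes. Fits that left out 1 library at a time gave 11 to 13 falls and 1 or 2 rises. HSP90AA1, the inducible cytosolic HSP90 (chr5:49679064-49684242), had 214, 266 and 300.2 CPM in lens 1, 2 and 3 and 599.7 CPM in lens 13, against 592, 549 and 529 CPM in the controls. The 3 lens libraries lay far below every control while lens 13 lay above all of them, and the fall in lens 1, 2 and 3 was 1.11 ± 0.10 (adjusted p = 0.000597). HSPA8, the constitutive HSP70 (chr24:3102900-3107843), had 151, 235 and 283 CPM in lens 1, 2 and 3 and 521 CPM in lens 13, against 532, 501 and 521 CPM in the controls. Its fall of 1.26 ± 0.17 (adjusted p = 0.00231) was deepest in lens 1, and lens 13 was within the controls. The call of HSPA8 was lost under robust moderation and without a filter on low values. The HSP70 relative HSPA2 fell by 1.10 ± 0.13 and its J-domain partners DNAJA1 and DNAJA4 by 0.93 ± 0.11 and 0.84 ± 0.08. HSPH1 and HSPA4, nucleotide exchange factors of HSP70, fell by 0.77 and 0.79, as did the HSP90 activator AHSA1 (0.56), the HSP70 regulator HSPBP1 (0.60) and STIP1 (0.65), which bridges HSP70 and HSP90. HSP90AB1, the constitutive HSP90, went the other way: it had 26.5, 26.0 and 28.4 CPM in lens 1, 2 and 3 and 17.1 CPM in lens 13, against 17.98, 17.1 and 16.2 CPM in the controls, a rise of 0.63 ± 0.07 (adjusted p = 0.00135). BAG1, an HSP70 cofactor, rose by 0.32. The call of BAG1 was lost without any 1 of the libraries other than lens 13, and that of STIP1 was lost without lens 1, lens 2, control 19 or control 21, with adjusted p up to 0.122 and 0.0699. The heat shock factors HSF1, HSF2 and HSF3 did not pass.

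In the endoplasmic reticulum, where secreted and membrane proteins fold, 7 of 25 chaperone and stress genes fell and none rose, with a median of -0.205. The share called was above the 11.4% of all genes. The list did not move as a whole. In lens 1, 2 and 3, 12 of the 25 lay below every control and 3 above, which were CANX, EIF2AK3 and SEL1L, without a call. HSPA5, the main chaperone of this compartment, had 31.7, 35.7 and 30.3 CPM in lens 1, 2 and 3 and 46.6 CPM in lens 13, against 55.6, 60.3 and 48.7 CPM in the controls. It fell by 0.73 ± 0.09 (adjusted p = 0.00138), and lens 13 was below the controls but nearer to them than to lens 1, 2 and 3. HSP90B1, the HSP90 of the reticulum, had 64.2, 79.1 and 66.5 CPM in lens 1, 2 and 3 and 109 CPM in lens 13, against 115, 119.7 and 107 CPM in the controls, a fall of 0.70 ± 0.08 (adjusted p = 0.00125). Calreticulin, CALR, fell by 0.58 ± 0.08, the disulphide isomerase PDIA6 by 0.48 ± 0.08 and XBP1, a transcription factor of the unfolded protein response, by 0.45 ± 0.10. The call of XBP1 was lost without lens 1, lens 2 or control 19 (adjusted p up to 0.0641), and the count of falls went down to 4 without control 19. The mitochondrial chaperone HSPD1 fell by 0.60 ± 0.07, as 1 of 7 tested genes of that group (14.3%). Proteasome subunits, which degrade proteins, changed little: 1 of 32 rose (PSMA4) and 1 fell (PSMD4), 6.25% against 11.4% of all genes, and PSMA4 lost its call without lens 1, lens 2 or any control (adjusted p up to 0.0957).

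Of 27 genes tested for synthesis, uptake and export of cholesterol, 16 rose, none fell and 11 did not pass (59.3% called, against 11.4% of all genes). Their median was 0.329. The count went down to 8 without lens 2 or control 23 and stayed at 0 falls in every fit that left out 1 library. INSIG1, which holds the sterol sensor in the endoplasmic reticulum and is itself a target of the sterol-responsive factor SREBP (chr2:7910231-7918979), had 52.7, 61.1 and 42.9 CPM in lens 1, 2 and 3 and 34.4 CPM in lens 13, against 26.4, 29.1 and 26.4 CPM in the controls. It rose by 0.90 ± 0.11 (adjusted p = 0.00138), and lens 13 stood between the other lens libraries and the controls. HMGCS1, an early enzyme of the mevalonate pathway, had 95.4, 95.8 and 79.0 CPM in lens 1, 2 and 3 and 63.5 CPM in lens 13, against 61.8, 57.7 and 55.8 CPM in the controls, a rise of 0.61 ± 0.08 (adjusted p = 0.00215). The later enzymes LSS and DHCR7 rose by 0.59 ± 0.12 and 0.44 ± 0.08. SQLE and CYP51A1 rose by 0.42 and 0.48. In lens 1, 2 and 3, 18 of the 27 lay above every control (16.7% of all genes did). MVD, also of the mevalonate pathway, lay below every control without a call. It had 1.07, 0.99 and 1.41 CPM in lens 1, 2 and 3 and 1.26 CPM in lens 13, against 1.57, 1.83 and 1.84 CPM. PMVK, under the filter and not tested, had 0.23, 0.23 and 0.35 CPM and 0.54 CPM in lens 13, against 0.79, 0.87 and 0.69 CPM. The exporter ABCA1 had 19.3, 14.2 and 15.7 CPM in lens 1, 2 and 3 and 8.79 CPM in lens 13, against 10.1, 9.27 and 8.91 CPM in the controls, a rise of 0.73 ± 0.11 (adjusted p = 0.00416). ABCA1 is a target of the oxysterol receptors, and here lens 13 lay just below the controls. The call of SQLE was lost without lens 1, lens 2, control 19 or control 23 and that of CYP51A1 without lens 2, lens 3 or any control, both with adjusted p up to 0.137.

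**Figure D2:**
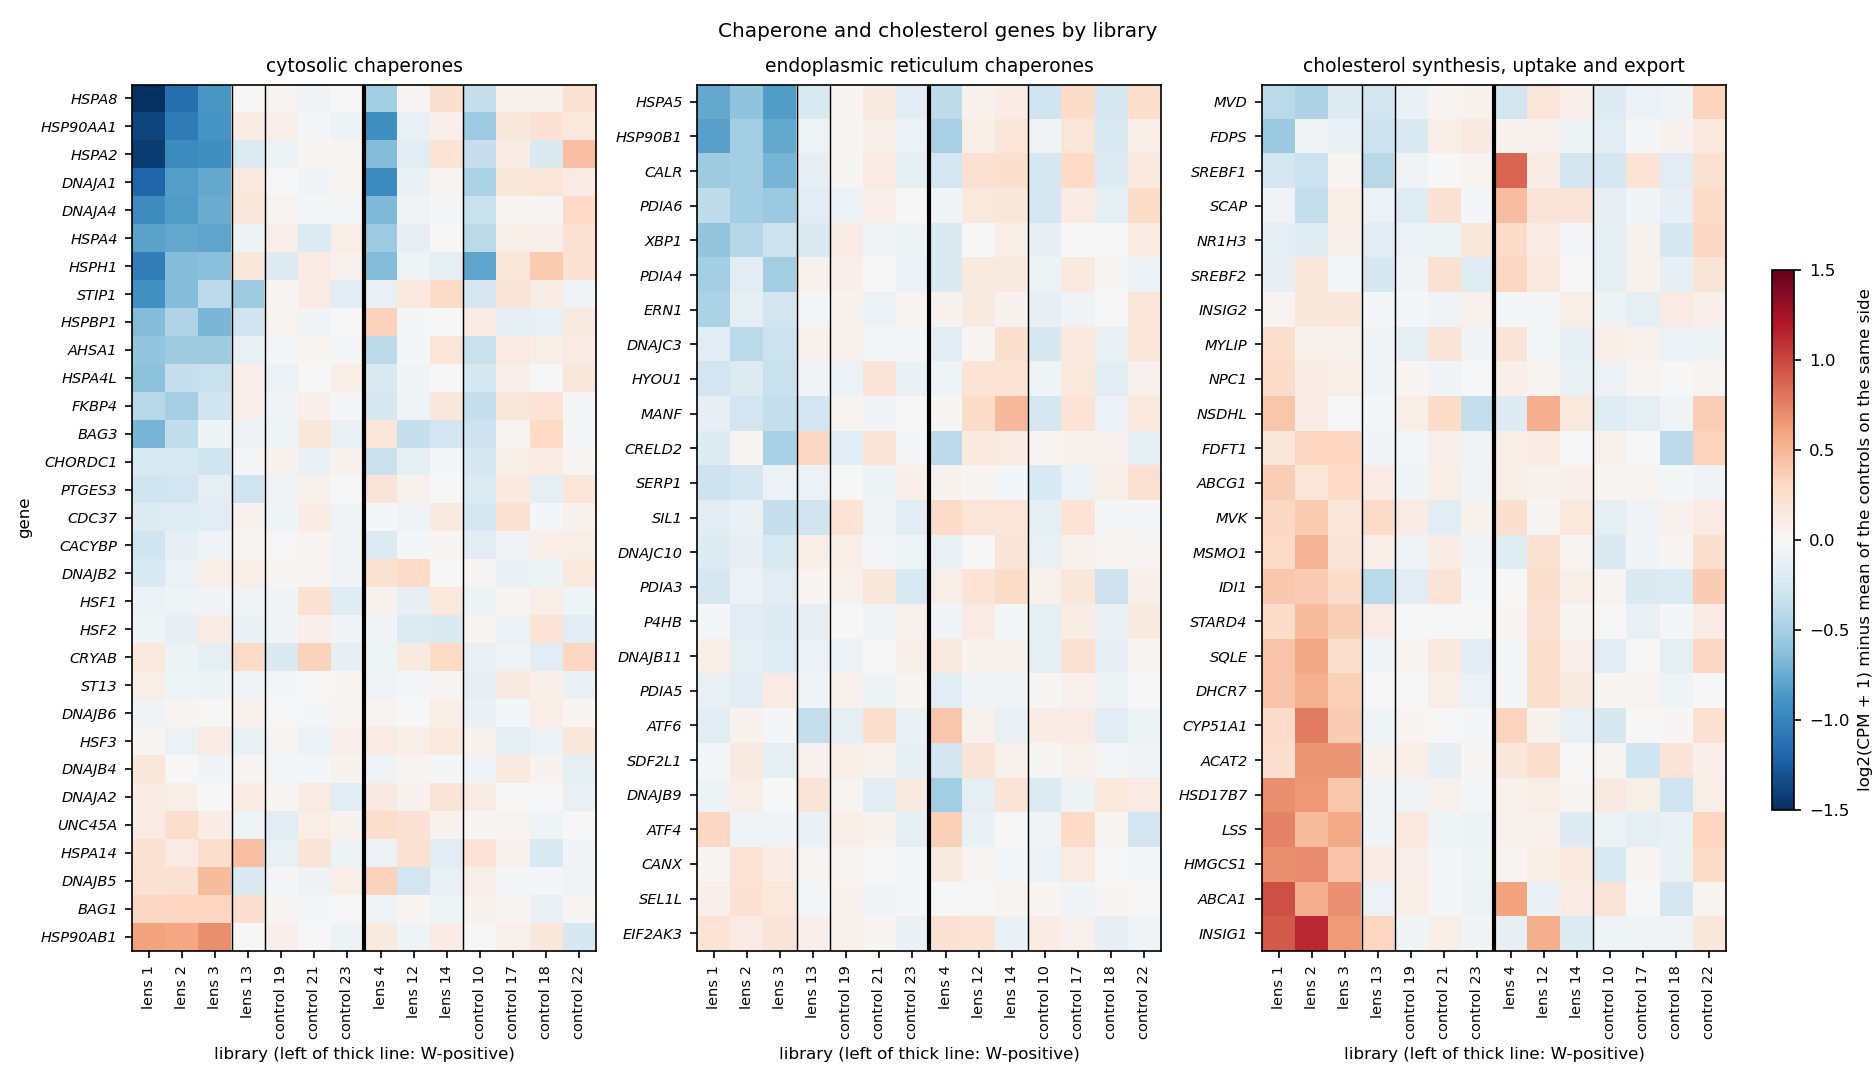
Cytosolic chaperone, endoplasmic reticulum chaperone and cholesterol genes (rows, some tested members not drawn, ordered by the change in lens 1, 2 and 3) in 14 libraries (columns), coloured by log2(CPM + 1) minus the mean of the controls on the same side of the thick line (W-positive left, W-negative right; scale from -1.5 to 1.5). Lens 1, 2 and 3 are blue for most chaperones and red for most cholesterol genes, with HSP90AB1 red at +0.63 and lens 13 close to the controls; lens 4 and control 10, on the right, are blue for HSP90AA1.

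A list of genes linked to the use of fatty acids or pyruvate as fuel had 2 rises and no fall among 20 tested. That is a smaller share than the 11.4% of all genes. PDK4, the kinase that shuts pyruvate out of the mitochondrial citric acid cycle (chr2:23874761-23914453), had 48.0, 41.7 and 49.2 CPM in lens 1, 2 and 3 and 20.1 CPM in lens 13, against 17.7, 23.2 and 19.8 CPM in the controls. This was among the largest rises, 1.16 ± 0.10 (adjusted p = 0.000543), with lens 13 within the controls. CPT1A, which admits fatty acids into mitochondria, had 35.1, 35.6 and 38.5 CPM in lens 1, 2 and 3 and 25.9 CPM in lens 13, against 23.6, 23.6 and 23.9 CPM in the controls, a rise of 0.60 ± 0.07 (adjusted p = 0.00107). Of 33 glycolysis and hypoxia-response genes 2 rose and 3 fell (15.2%, against 11.4% of all genes). NDRG1 and BNIP3 rose, by 0.69 ± 0.09 and 0.54 ± 0.11. P4HA1, ALDOC and EGLN3 fell, by 0.48 ± 0.07, 0.38 ± 0.09 and 0.84 ± 0.23. All of these are known hypoxia targets or glycolytic genes, and they moved in both directions. The call of ALDOC was lost without lens 1, lens 2 or control 21 and that of EGLN3 without lens 2, lens 3, control 21 or control 23, with adjusted p up to 0.067 and 0.14.

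Several of the largest falls were in other genes. COX17, a copper chaperone of cytochrome oxidase, had 4.52, 5.70 and 6.15 CPM in lens 1, 2 and 3 and 13.8 CPM in lens 13, against 14.6, 15.6 and 13.5 CPM in the controls, a fall of 1.27 ± 0.11 (adjusted p = 0.000543). OST4, a subunit of the oligosaccharyltransferase, fell by 1.63 ± 0.20 and NDUFA13, of respiratory complex I, by 1.23 ± 0.20. Outside the 7 libraries, control 10 and control 17 were also low for these 3 genes: control 10 had 6.25, 1.66 and 4.34 CPM and control 17 had 6.64, 2.41 and 3.91 CPM of COX17, OST4 and NDUFA13. Of 71 cytosolic ribosomal protein genes 6 fell and none rose, 8.45% against 11.4% of all genes, with a median of -0.106. RPS19 fell most (adjusted p = 0.000543): it had 7.62, 7.33 and 5.77 CPM in lens 1, 2 and 3 and 14.7 CPM in lens 13, against 16.2, 18.8 and 18.04 CPM in the controls. RPS28, RPL12 and RPS23 fell by 0.68, 0.49 and 0.40. The number of falls ranged from 3 (without lens 1, lens 2 or control 19) to 11; RPS28 lost its call without lens 1, lens 2 or control 23 and RPL12 without control 19, with adjusted p up to 0.0657 and 0.0691. Where a gene has near-identical copies, reads can be shared among them, and this was not tested for the ribosomal protein genes.

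Of 19 clock activators and repressors 6 were called (31.6%, against 11.4% of all genes) and 13 did not pass. The activators ARNTL, ARNTL2 and NPAS2 rose, by 0.48 ± 0.09, 0.60 ± 0.08 and 0.31 ± 0.08. The repressor PER2, the cryptochrome CRY4 and the nuclear receptor RORB fell, by 0.63 ± 0.06, 0.70 ± 0.15 and 0.25 ± 0.06. Activators and repressors did not all move this way. CLOCK had 88.82, 86.75 and 89.83 CPM in lens 1, 2 and 3 and 98.87 CPM in lens 13, against 99.81, 91.67 and 96.46 CPM in the controls. The period gene PER3 had 71.78, 70.49 and 75.56 CPM in lens 1, 2 and 3 and 46.8 CPM in lens 13, against 55.58, 68.57 and 62.7 CPM in the controls. Neither CLOCK nor PER3 passed. Lens 13 did not follow for ARNTL2, at 38.7 CPM within the controls (33.3 to 38.8 CPM). Its NPAS2 value of 7.42 CPM lay below all controls (9.37 to 9.92 CPM). PER2 and RORB were below the controls in lens 13 as well, and CRY4 was within them. ARNTL had 30.1, 27.6 and 27.0 CPM in lens 1, 2 and 3 and 25.7 CPM in lens 13, against 22.4, 20.3 and 17.4 CPM in the controls, so that all 4 lens libraries lay above the controls. NFIL3, a repressor of clock output, was the 1 of 3 output factors to change, a rise of 0.45 ± 0.12: it had 27.1, 21.6 and 24.9 CPM in lens 1, 2 and 3 and 27.7 CPM in lens 13, against 20.7, 14.7 and 17.9 CPM in the controls. Lens 13 had the highest NFIL3 value of the 7. None of the 4 melatonin genes tested was called in the values as deposited, with a median of -0.200, and 1 fell after median-of-ratios or quantile scaling. The hour at which each retina was taken is not among the labels, so hour and lens cannot be told apart. Calls were lost for NPAS2 without any library other than lens 13, for RORB without lens 1, 2, 3, control 19 or control 23, for NFIL3 without lens 1, lens 3, control 21 or control 23 and for CRY4 without lens 1 or control 23, with adjusted p up to 0.099, 0.0768, 0.107 and 0.0622.

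**Figure D3:**
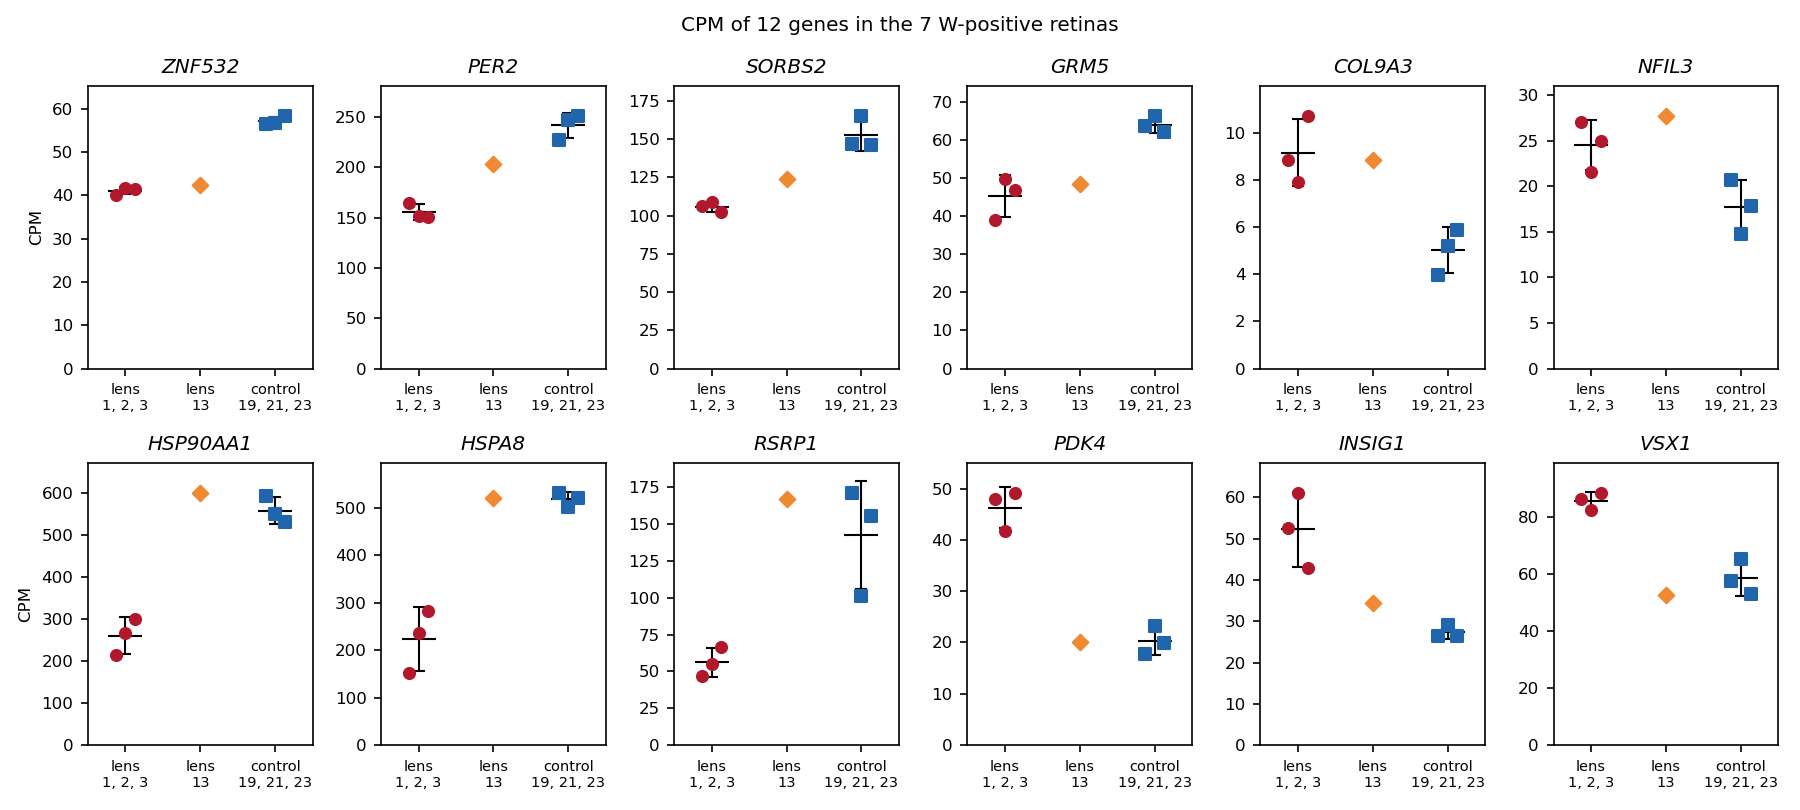
CPM (y axis, from 0) of 12 genes in lens 1, 2 and 3 (red), lens 13 (orange) and control 19, 21 and 23 (blue); points are libraries, and black bars show the mean and SD of each group of 3. In the upper row, from ZNF532 to NFIL3, lens 13 is on the same side of the controls as the other lens libraries; in the lower row it stands within or beyond the controls for all but INSIG1.

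Of 37 genes of growth and defocus signalling, 2 rose and 5 fell (18.9%, against 11.4% of all genes), with a median of 0.002. ID4, an inhibitor of helix-loop-helix factors and a target of BMP signalling, had 1.70, 1.98 and 2.99 CPM in lens 1, 2 and 3 and 4.60 CPM in lens 13, against 5.89, 5.46 and 5.41 CPM in the controls. It fell by 1.05 ± 0.15 (adjusted p = 0.00283), and lens 13 was below the controls as well. IGF1 fell by 0.51 ± 0.10, while IRS2, an adaptor of insulin and IGF receptors, rose by 0.41 ± 0.06. In lens 13 both lay below the controls. IGF1 had 6.93 CPM there, against 7.18 to 8.05 CPM in the controls, and IRS2 had 33.9 CPM, against 37.8 to 39.2 CPM. DIO2, which activates thyroid hormone, fell by 0.51 ± 0.09, GRM5 by 0.50 ± 0.08 and the retinoic acid receptor RARB by 0.39 ± 0.11. NOS1, the neuronal nitric oxide synthase, rose by 0.51 ± 0.14. Calls of RARB (lost without lens 1, 2, 3, control 19 or control 23) and NOS1 (lost without lens 2, lens 3, control 21 or control 23) were the weakest, with adjusted p up to 0.132 and 0.128. Of 10 tested genes in a list of ERK feedback genes and related phosphatases, 3 fell and none rose (30.0%, against 11.4% of all genes). IL17RD fell by 0.79 ± 0.14, the phosphatase DUSP6 by 0.44 ± 0.09 and SPRED1 by 0.42 ± 0.08. DUSP6 had 17.8, 16.5 and 15.4 CPM in lens 1, 2 and 3 and 19.1 CPM in lens 13, against 20.8, 25.8 and 21.9 CPM in the controls. Of 12 immediate early genes 1 rose and 1 fell (16.7%, against 11.4% of all genes). CSRNP1 rose by 0.45 ± 0.07 and ATF3 fell by 0.42 ± 0.12. The call of ATF3 was lost without any library other than lens 13 (adjusted p up to 0.141).

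Among the genes that mark retinal cell types, calls were scattered. The 35 phototransduction and outer segment genes had a median change of -0.14 in lens 1, 2 and 3 and -0.122 in lens 13. Of them 6 fell and none rose in lens 1, 2 and 3 (17.1%, against 11.4% of all genes). They included the potassium channel modifier KCNV2 (0.45 ± 0.09), the transcription factor MAFA (0.45 ± 0.11), the channel subunit CNGB3 (0.31 ± 0.07), the rod factor NR2E3 (0.70 ± 0.17), RGS9 (0.26 ± 0.05) and cone transducin GNAT2 (0.25 ± 0.07). In whole retinas, fewer cells of a type and less RNA per cell cannot be told apart. The falls are fragile: without lens 2 just 1 gene of the list fell. VSX1, a factor of cone bipolar cells, rose by 0.55 ± 0.08 (adjusted p = 0.00293): it had 86.6, 82.5 and 88.7 CPM in lens 1, 2 and 3 and 52.7 CPM in lens 13, against 57.6, 65.5 and 53.0 CPM in the controls, and lens 13 lay just below the controls. GRIK1, a kainate receptor subunit of OFF bipolar cells, fell by 0.22 ± 0.05. Of 16 ganglion cell genes RBPMS2 and INA rose, by 0.67 ± 0.15 and 0.41 ± 0.10. Of 22 horizontal and amacrine genes the vesicular glutamate transporter SLC17A8 fell by 0.40 ± 0.10. Of 12 Müller glia genes CA2 fell by 0.33 ± 0.09, and of 6 oligodendrocyte genes ERMN fell by 0.54 ± 0.11. The share called was above the 11.4% of all genes for the ganglion cell and oligodendrocyte lists. It was below that for the horizontal and amacrine and the Müller glia lists, whose median changes were slightly positive. In lens 1, 2 and 3, 2 horizontal and amacrine genes lay above every control, GAD1 among them, and 3 below. Of the Müller glia genes 1, VIM, lay above every control and 1 below. Except VSX1, KCNV2 and ERMN, each called gene named in these lists lost its call without at least 1 library. The highest adjusted p ran from 0.0516 for RGS9, without lens 2, to 0.137 for CA2, without lens 1, lens 2 or any control. MAFA and CA2 depended on the same 5 libraries, CNGB3 on lens 2, lens 3 and each control, GNAT2 on each of lens 1, 2, 3, control 21 and control 23, NR2E3 on lens 1, lens 2, control 19 and control 21, GRIK1 on lens 1, lens 2, control 19 and control 23, RBPMS2 on lens 2, lens 3, control 19 and control 23, INA on lens 1, lens 3 and control 19, and SLC17A8 on lens 1, lens 3 and each control.

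Of 39 potassium channel genes 2 rose and 3 fell (12.8%, against 11.4% of all genes), among them KCNH1, KCNH5 and KCNH8 of the KCNH family. KCNH1 had 43.7, 51.5 and 57.2 CPM in lens 1, 2 and 3 and 63.6 CPM in lens 13, against 78.8, 78.5 and 81.3 CPM in the controls, a fall of 0.64 ± 0.09 (adjusted p = 0.00215) with lens 13 also below the controls. KCNH8 fell by 0.74 ± 0.10, and KCNH5 rose by 0.36 ± 0.06. Of 21 glutamate receptor genes 4 fell and none rose: GRM5, GRM4, GRIA1 and GRIK1. The share called was above the 11.4% of all genes, and the median change of the list was slightly negative. The count of falls went down to 1 without lens 1 or control 23, and among the 4 GRM5 alone kept its call in every fit that left out 1 library. Of 28 genes of GABA and glycine transmission 2 fell and none rose (7.14%): the glycine receptor subunit GLRA2 fell by 0.34 ± 0.06 and GABRA6 by 0.25 ± 0.07. GLRA2 had 34.1, 36.2 and 34.2 CPM in lens 1, 2 and 3 and 36.2 CPM in lens 13, against 42.9, 43.3 and 47.1 CPM in the controls, so that lens 13 lay with the other lens libraries. Of 22 synaptic vesicle release genes 1 rose and 2 fell (13.6%). The active-zone scaffold PCLO and the ribbon-synapse syntaxin STX3 fell by 0.25 ± 0.05 and 0.37 ± 0.10. GRIA1 lost its call without any library other than lens 13, GABRA6 without lens 1, lens 3 or any control, STX3 without lens 1, lens 2 or any control, GRM4 without lens 1, lens 3, control 21 or control 23 and GRIK1 without lens 1, lens 2, control 19 or control 23, with adjusted p up to 0.132, 0.14, 0.0927, 0.0946 and 0.0898.

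Of 27 extracellular matrix genes 3 rose and none fell (11.1%, against 11.4% of all genes): CLEC3A, COL9A3 and COCH. After quantile scaling 2 rose and 1 fell. CLEC3A, a cartilage C-type lectin, had 56.1, 53.9 and 53.9 CPM in lens 1, 2 and 3 and 36.9 CPM in lens 13, against 22.4, 29.8 and 30.0 CPM in the controls. It rose by 0.98 ± 0.10 (adjusted p = 0.000812), with lens 13 between the other lens libraries and the controls. COL9A3 rose by 0.76 ± 0.14 and COCH by 0.66 ± 0.18. The call of COCH was lost without lens 1, lens 2 or any control (adjusted p up to 0.134). Markers of vessels and connective tissue moved in both directions, COL6A1 up by 0.71 ± 0.15 and FN1 down by 1.05 ± 0.28, while that list summed to 73.5 to 87.8 CPM in lens 1, 2 and 3, 71.0 CPM in lens 13 and 73.2 to 86.6 CPM in the controls; FN1 lost its call without lens 1, lens 3 or control 21 and COL6A1 without lens 1, at adjusted p up to 0.117 and 0.0502. Among the 4 tested lens and cornea genes CRYGN rose by 0.44 and CRYBA4 fell by 0.37, and both calls were lost without lens 1, lens 2 or any control (adjusted p up to 0.116 and 0.141), CRYGN's also without lens 3. None of the 6 tested pigment epithelium genes was called, and their list summed to 34.7 to 38.6 CPM in lens 1, 2 and 3, 38.3 CPM in lens 13 and 40.2 to 45.5 CPM in the controls. The part of these tissues in the results was not tested.

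Of 29 splicing regulators 4 fell and none rose (13.8%, against 11.4% of all genes). RSRP1 (chr23:2551021-2555965), an arginine- and serine-rich protein, had 46.7, 54.9 and 66.5 CPM in lens 1, 2 and 3 and 167 CPM in lens 13, against 171, 101 and 156 CPM in the controls, a fall of 1.31 ± 0.17 (adjusted p = 0.00215). The controls were spread widely, and lens 13 lay near their top. RBM5, which regulates splicing of cell death genes, fell by 0.65 ± 0.06, RBM39 by 0.29 ± 0.06 and ARGLU1 by 0.26 ± 0.05; RBM39 lost its call without lens 2 or control 19 (adjusted p up to 0.0618). Other genes with large changes in lens 1, 2 and 3 were the amino acid transporter SLC38A4, up by 1.04 ± 0.13, the kinase NEK10, up by 1.32 ± 0.19, tissue factor F3, up by 0.94 ± 0.17, and the gene ARHGAP28, down by 1.03 ± 0.13. NEK10 had 15.2, 10.3 and 8.56 CPM in lens 1, 2 and 3 and 4.58 CPM in lens 13, against 3.08, 5.00 and 3.54 CPM in the controls. Lens 13 was within the controls for all 4 of these genes. The DNA replication clamp loader RFC4 and the inner ear and cartilage protein OTOR rose by 0.76 ± 0.14 and 0.79 ± 0.12. Of 13 cell division genes 1 rose and 1 fell (15.4%, against 11.4% of all genes). The replication helicase subunit MCM4 rose by 0.57 ± 0.10 and FBXO5 fell by 0.74 ± 0.14.

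**Figure D4:**
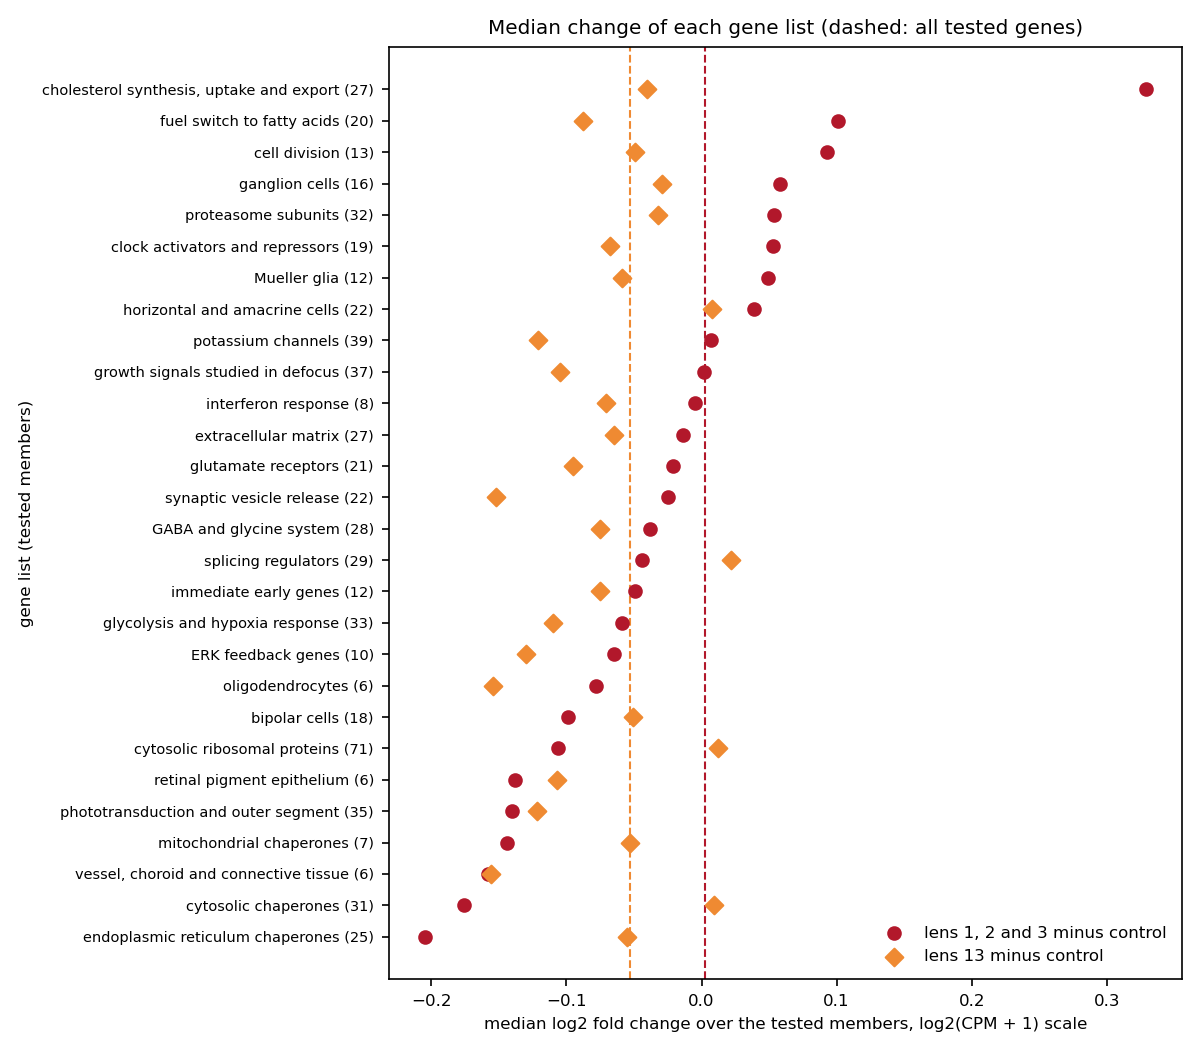
Median log2 fold change over the tested members of each gene list (rows, number of members in brackets; lists of at least 5) in lens 1, 2 and 3 (red circles) and in lens 13 (orange diamonds), each minus the same 3 controls. Cholesterol genes stand at 0.329 in lens 1, 2 and 3 and -0.04 in lens 13, and cytosolic chaperones at -0.176 and 0.009; dashed lines mark the medians of all genes, 0.00225 and -0.0533.

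Lens 13 alone against the controls gave 3 called genes (0.0273%), 2 higher (0.0182%) and 1 lower (0.00909%), with 921 genes at an unadjusted p under 0.05. With 1 library on this side, its spread is taken from the other 2 groups. MYBPC3, a thick-filament protein of heart muscle (chr5:23217884-23275421), had 12.4 CPM in lens 13, against 1.04, 0.639 and 1.01 CPM in the controls, a rise of 2.83. It stood at 0.863, 0.713 and 0.703 CPM in lens 1, 2 and 3, but at 9.45 CPM in lens 14 and 12.97 CPM in control 10. A high value was thus not particular to lens retinas. MYBPC3 met the filter on the mean through libraries with high values, lens 13 among them, so its call is no independent support. Lens 13 was not high for other striated muscle genes, as the sum above shows. LOC112531859, described above, rose by 1.60, and the noncoding LOC107051722 (chr4:51384701-51478349) fell by 1.64, with 1.31 CPM in lens 13 against 5.95, 5.67 and 7.0 CPM in the controls. The genes of next smallest p did not pass; they were MGARP, KPNA3, SEC23B and FBXO5 on the higher side and HIST1H111R, MAF1, ACTB, GPX4 and ZNF532 on the lower side, with adjusted p from 0.148 to 0.344. All 3 called genes average under 5 CPM and so drop out under a filter at that level, and none was called with 6 group means over all 14 libraries.

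Lens 1, 2 and 3 set directly against lens 13 differed in 149 genes (1.35%), 103 higher (0.936%) and 46 lower (0.418%) in lens 1, 2 and 3. This difference is between lens retinas, while the controls in the same fit contribute to its estimate of the spread. PDK4 was higher in lens 1, 2 and 3 by 1.16 ± 0.14, TXNDC16 by 1.02 and FKBP5, a co-chaperone induced by glucocorticoids, by 0.96. FKBP5 had 20.002, 18.8 and 20.01 CPM in lens 1, 2 and 3, against 9.60 CPM in lens 13, and the 3 controls had 11.3, 11.2 and 13.2 CPM. HSP90AA1, HSPA8, DNAJA1 and DNAJA4 were lower in lens 1, 2 and 3 by 1.22, 1.27, 1.09 and 1.01, with 8 of the 31 cytosolic chaperones lower and HSP90AB1 higher. Of the cholesterol genes 3 of 27 were higher, among them ABCA1 by 0.82. The cell cycle regulator FBXO5 had 3.20, 3.56 and 3.69 CPM in lens 1, 2 and 3, against 12.97 CPM in lens 13, with the controls at 7.71, 5.03 and 6.96 CPM in between. The difference was therefore made from both sides of the controls. For PER2, INSIG1, HMGCS1, HSPA5 and CALR the difference between lens 1, 2 and 3 and lens 13 did not pass (adjusted p of 0.0580 to 0.0850), and for COL9A3 and GRM5 it was 0.03 ± 0.20 and -0.11 ± 0.12. The count depended on the libraries, at 44 without lens 1, 76 without lens 2, 68 without lens 3 and 90 without control 23, and was 14 with the title letter as a covariate. After median-of-ratios scaling 60 of 129 called genes were higher in lens 1, 2 and 3, and after quantile scaling 54 of 100, against 103 of 149 as deposited; over all genes lens 1, 2 and 3 were 0.0522 higher in the median.

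The lens effect in the 7 female retinas was also tested against that in the 7 W-negative ones, which hold lens 4, 12 and 14 and control 10, 17, 18 and 22. No gene passed (0.00%; limma, smallest adjusted p 0.24), with 917 genes at an unadjusted p under 0.05. This test carries the spread between lens libraries of the 2 title runs in its error, on both sides. Most W-positive lens libraries have titles 1 to 4, and most W-negative ones have titles 12 to 14. Title run and W split therefore cannot be fully told apart here. The smallest p belonged to HIST1H111L, a histone gene with 4.51, 4.92 and 5.84 CPM in lens 1, 2 and 3 and 4.94 CPM in lens 13, against 7.73, 8.96 and 9.42 CPM in the female controls. In W-negative retinas it stood at 9.43, 8.96 and 9.13 CPM in lens 4, 12 and 14, against 7.04, 8.84, 7.82 and 8.78 CPM in control 10, 17, 18 and 22. Lens libraries were thus all below the female controls and all above the W-negative ones. PECAM1, an adhesion molecule of vessels, went the other way, at 20.2, 23.3 and 20.2 CPM in lens 1, 2 and 3 and 23.8 CPM in lens 13 against 15.7, 20.1 and 15.4 CPM in the female controls, and at 16.2, 13.1 and 14.6 CPM in W-negative lens retinas against 20.1, 20.4, 18.6 and 21.03 CPM in W-negative controls. Other genes of small p in this test were ANO6, RER1 and CPNE3, with a larger change in female retinas, and ZNF532, GTSF1 and CPD, with a more negative one, at adjusted p of 0.461.

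The W-negative libraries give the genes of lens 1, 2 and 3 another look with other controls. Of the 634 genes that rose in lens 1, 2 and 3, lens 4 lay above all 4 W-negative controls for 406 (64.0%, against 36.2% of all genes), lens 12 for 139 (21.9%, against 22.4%) and lens 14 for 120 (18.9%, against 20.5%). Of the 620 that fell, lens 4 lay below all 4 for 294 (47.4%, against 18.5%), lens 12 for 90 (14.5%, against 1317 of 11005 genes) and lens 14 for 94 (15.2%, against 13.6%). Lens 4, which shares the run of titles 1 to 4, was thus more often on the side of lens 1, 2 and 3 than lens 12 and 14 were, whose shares were near those of all genes. HSP90AA1 stood at 287 CPM in lens 4, 505 CPM in lens 12 and 577 CPM in lens 14, against 374, 613, 637 and 609 CPM in control 10, 17, 18 and 22. PDK4 stood at 38.6 CPM in lens 4, 27.1 CPM in lens 12 and 21.3 CPM in lens 14, against 27.3, 23.4, 19.1 and 14.7 CPM in the same controls. For both genes lens 4 was outermost, and control 10 was the W-negative control nearest to it. INSIG1 did not follow, at 28.6 CPM in lens 4, 45.8 CPM in lens 12 and 27.2 CPM in lens 14, against 29.6, 30.1, 30.0 and 35.0 CPM in the controls. PER2 stood at 207, 201 and 198 CPM in lens 4, 12 and 14, against 214, 247, 251 and 279 CPM in the controls, so that every lens library lay below every control, within the W-positive and within the W-negative libraries.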

How the data were processed

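Retinal RNA of 14 chicken libraries was read from a table of normalised values. The authors deposited CPM per gene, with 0.0001 added to every value; per the submitters' processing notes the tools were STAR and Partek and the build was GRCg6a, with no role given. Among values of up to 20 steps, 94.1% to 95.1% in the 7 libraries were whole multiples of the step within 0.05, too few for the values to be used as counts. Positions are those of the deposited table; chromosome names come from matching symbols to the RefSeq table. From the CPM, log2(CPM + 1) was tested with limma 3.58.1 (R 4.3.3; eBayes with trend) on genes averaging at least 1 CPM. Lens 1, 2, 3 and 13 formed 1 group in a first fit and 2 groups (lens 13 apart) in a second; the test against W-negative libraries used 4 group means. Genes in the text are the 12 of largest change in each direction for the 2 lens-against-control fits, filled up by p where fewer were called, the 5 of smallest p in each direction for the other fits and up to 4 of smallest p per list and fit; HSP90AB1, BAG1, HSPH1, LSS, SQLE, CYP51A1, DHCR7, XBP1, HSF1, HSF2, HSF3, GNAT2, PDE6H, IGF1, NOS1, NPAS2, EGLN3 and the loci without names were chosen after their values were seen. CLOCK, PER3, MVD, PMVK, SLC4A1, MIP, CANX, EIF2AK3, SEL1L, GAD1 and VIM were likewise chosen after their values were seen. The members, lists and rules were chosen with earlier results of these data known. Some genes are counted in their lists but not reported here by name. Code was tested on simulated data.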

Additional observations from a re-analysis of the deposited data

Results flagged for a closer look

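Dixon's criterion was applied to 153 groups of 4 lens values, which were named genes and a few summary measures of the libraries. In 20 of them, all genes, 1 library lay far from the other 3, and in 18 it was lens 13. Chance flags about 5% of groups, but many of these genes were named for a difference of lens 1, 2 and 3 or of lens 13, so that share is no background for them. Lens 13 was high for AHSA1 (16.1 CPM), ARGLU1 (177), DNAJA4 (22.5), FBXO5 (12.97), HSPA4 (35.0), HSPD1 (40.0), IL17RD (10.6), MYBPC3 (12.4) and RSRP1 (167 CPM). It was low for CLEC3A (36.9 CPM), COL6A1 (3.14), FKBP5 (9.60), KCNH5 (79.2), MCM4 (4.53), NPAS2 (7.42), OVCH2 (5.4), SMTN (22.2) and TXNDC16 (5.42 CPM). In the remaining 2 it was lens 3, low for ANXA2 (13.9 CPM) and GTSF1 (2.81 CPM).

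The direct comparison of lens 1, 2 and 3 with lens 13 differed in 149 genes (limma, adjusted p under 0.05). Among the named genes, lens 1, 2 and 3 were higher on the log2 scale for ABCA1 (0.82), ACAP3 (0.73), ACTB (0.52), CPT1A (0.48), FKBP5 (0.96), HSP90AB1 (0.63), IRS2 (0.59), KCNH5 (0.45), LOC107051722 (1.47), NPAS2 (0.65), OVCH2 (0.86), PDK4 (1.16), SLC38A4 (0.98), SMTN (0.62), TXNDC16 (1.02) and VSX1 (0.70). The differences were negative for COX17 (-1.21), DNAJA1 (-1.09), DNAJA4 (-1.01), FBXO5 (-1.64), HSP90AA1 (-1.22), HSP90B1 (-0.63), HSPA2 (-0.89), HSPA4 (-0.71), HSPA8 (-1.27), HSPD1 (-0.74), HSPH1 (-0.94), MYBPC3 (-2.93), P4HA1 (-0.57), RBM5 (-0.56), RPS19 (-1.0) and RSRP1 (-1.57). The title number moves with this split, and its part was not tested.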

How the results depend on the processing

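No paired analysis was possible because the lens and control libraries share no replicate number. The comparison of all 4 lens libraries with control, 6 called genes as reported, gave 0 without a filter, 28 with robust moderation, 1034 with library weights, 23 with the title letter as a covariate, 546 with 6 group means over 14 libraries, and 0 to 1263 leaving out 1 library at a time. For lens 1, 2 and 3 against control (1254), no filter gave 404, the fits leaving out 1 library gave 595 to 1263, and the other alternatives 1109 to 1395. For lens 13 against control (3), a mean of at least 5 CPM and the 6 group means gave 0 each. Lens 1, 2 and 3 against lens 13 (149) gave 2 without a filter, 262 with robust moderation, 14 with the title letter, 67 with 6 group means and 44 to 192 leaving out 1 library. The test against W-negative libraries gave 0 in each alternative except 1 without control 19 and 1 without control 22. Without a filter, 67 of the named genes lost their call in lens 1, 2 and 3 against control. Single genes reversed only without lens 13 in the comparison of all lens libraries: ACTB (0.057; range -0.13 to 0.057 leaving out 1 library) and MYBPC3 (-0.10; range -0.10 to 0.89). Counts of calls in small lists moved by 1 or 2 with the scaling, and the medians of growth signals, potassium channels and extracellular matrix changed sign at values within 0.02 of 0. Depth limits the genes under the filter, 7626 of the table. The causes of these shifts were not tested.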

Other observations

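Gene families outside the lists were counted in lens 1, 2 and 3 against control 19, 21 and 23 after their members' values were seen, so their counts are descriptions. Of 29 histone genes tested, 7 fell and none rose (24.1%, against 11.4% of all genes), and the median log2 change was -0.354 in lens 1, 2 and 3 and -0.239 in lens 13. H2AFJ fell by 1.21, at 2.47, 2.95 and 7.26 CPM in lens 1, 2 and 3 and 8.50 CPM in lens 13, against 8.32, 12.6 and 10.1 CPM in the controls. Its call was lost without lens 1, lens 2, control 21 or control 23 (adjusted p up to 0.0628). Histone genes have near-identical copies, and most of their transcripts lack a poly(A) tail. Of 188 solute carrier genes, which move nutrients and ions across membranes, 16 rose and 4 fell, 10.6% against 11.4% of all genes. Of 32 complex I genes 3 fell, of 8 complex III genes 1 and of 16 ATP synthase genes 1, and none rose. None of 8 complex IV genes was called. Of 65 mitochondrial ribosomal protein genes 2 rose and 3 fell. Except for the histones and complex III, the share called in each of these families was under the 11.4% of all genes. Complex III, with 1 call among 8 genes, is too small to compare.

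By gene span, in 5 classes of 2201 genes from the shortest to the longest, 131, 84, 91, 117 and 197 genes fell and 68, 132, 163, 155 and 116 rose in lens 1, 2 and 3. The median change was -0.039, 0.022, 0.040, 0.014 and -0.026 in the same order. No test of this pattern was made.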
